A study of Macaca mulatta with 26 samples.

Results

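Immediate early response genes are genes whose transcription starts within minutes of a signal reaching the cell, without new protein having to be made first. The 36 genes described here were taken by name from a list of FOS, JUN, EGR, NR4A, KLF and DUSP family members and other rapidly induced genes, with no threshold on a measured value, though earlier results of these data were known when the list was drawn up. Of the 36 names, 35 were among the 50308 genes of the expression table, and IER5 was not analysed here. With 35 genes followed through 4 times of day in rhesus macaque retina and pineal gland, the set asks where and when rapid transcriptional responses are visible around the clock.

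Their products fall into a few classes. FOS and JUN proteins pair to form the transcription factor AP-1, the EGR proteins are zinc finger factors, and the NR4A proteins are nuclear receptors that act without a classical hormone. DUSP phosphatases, the kinase SIK1 and the RNA-binding protein ZFP36 are made quickly and shut down the pathways that induced them. Many of these genes carry binding sites for CREB, SRF or YAP and TEAD factors, and so respond to cyclic AMP and calcium, to growth factors, or to mechanical and serum signals. In the rodent pineal gland, noradrenaline released at night raises cyclic AMP, and genes of these families, FOSL2 among them, are induced after dark. In the rodent retina, light and neuronal activity induce FOS and EGR1.

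RNA was sequenced from 12 pineal gland libraries and 12 retina libraries, 3 of each tissue per time, and from 2 control pools of 16 other tissues, 1 collected at mid-day and 1 at midnight. Dawn tissue was taken between 0500 and 0700, around lights on. The mid-day window ran from 1100 until 1300, the dusk window from 1700 until 1900 around lights off, and the midnight window from 2300 until 0100. Per the labels the tissues came from 12 adult animals of both sexes, 3 to 33 years old, acquired over 11 years, with 3 animals per time. All were housed for at least 6 weeks under 12 h of light and 12 h of darkness, with lights on at 0600, and all were given ketamine before euthanasia. For dusk and night collections the animals were anesthetized under dim red light and blindfolded, and dissection took up to 45 minutes after death. That handling went with the time of day, so the part of each in a difference between a dark and a light time cannot be told apart. The pools are mixtures of brain regions and peripheral organs and are single libraries.

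Levels are in FPKM, fragments per kilobase of gene model and scaled to the depth of the library. Read totals, recovered from the values and given in megareads (M), lay between 11.7 and 16.1 M for the pineal gland and between 16.9 and 21.4 M for the retina, with 16.2 and 23.0 M for the pools. Of 5 pinealocyte markers, 2 were higher in every pineal library than in any retina library: TPH1, an enzyme of serotonin synthesis, at 431 to 817 FPKM in pineal and 7.71 to 23.3 FPKM in retina libraries, and ASMT, the last enzyme of melatonin synthesis, at 89.8 to 187 and 0.439 to 8.52 FPKM. The other 3 did not separate the tissues in that direction, with medians of 52.4 FPKM in pineal and 55.0 FPKM in retina libraries for AANAT, 191 and 294 FPKM for CRX, and 1.12 and 373 FPKM for SAG. Retina dawn 2 and retina mid-day 1 stood apart, with 44.8% and 45.7% of all genes at 0 against 33.5% to 35.2% in the other 10 retina libraries. A difference in bulk tissue can come from fewer cells of a type or from less RNA per cell, and these cannot be told apart here.

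A member was tested where 3 or more libraries of the fit reached 1 FPKM, which 28 of the 35 did in the pineal gland, 25 in the retina and 24 in both. FOSL1, ATF3, EGR3, EGR4, NPAS4 and ARC failed in both tissues. DUSP2 passed in the retina alone, while FOSB, EGR2, KLF2 and KLF4 passed in the pineal gland alone. JUND had a gene model with an implied counted length of 26 bases, against 1032 to 7104 bases for the other 34 members, so its FPKM is comparable between libraries but not with other genes.

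In the pineal gland, several members were low at dusk and higher at midnight and dawn. SIK1, NR4A3, FOSL2, DUSP4, DUSP5 and CTGF were higher in all 3 midnight libraries than in any dusk library, and lower in all 3 dusk libraries than in any dawn library. The 2 mid-day libraries numbered 1 and 2 were near the dusk level for most of these genes, and mid-day 3 was near the night level. No member passed limma's moderated F test over the 4 times (0 of 28 at a Benjamini-Hochberg adjusted p under 0.05, against 0.105% of all genes tested), with 9 of 28 at an unadjusted p under 0.05 and 14.5% of all genes. The 6 with the smallest p were SIK1, NR4A3, KLF10, DUSP5, DUSP4 and FOSL2, with limma adjusted p of 0.119 to 0.206.

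SIK1, salt-inducible kinase 1, is a cyclic AMP-induced kinase that restrains CREB coactivators. Its values in pineal dawn libraries were 15.4, 16.9 and 37.0 FPKM, in mid-day libraries 1.70, 1.32 and 26.9, in dusk libraries 1.43, 1.55 and 1.06, and in midnight libraries 23.2, 37.2 and 57.2. The dusk libraries lay below every dawn and midnight library, and mid-day 3 was about as high as midnight 1 while the other mid-day libraries were at the dusk level. The log2 difference was 4.34 ± 0.85 (SE) for midnight against dusk (limma adjusted p = 0.0906), 2.96 ± 0.85 for midnight against mid-day (limma adjusted p = 0.288) and -3.57 ± 0.85 for dusk against dawn (limma adjusted p = 0.0875), none past the threshold. In retina libraries SIK1 stayed between 1.36 and 5.33 FPKM.

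**Figure D1:**
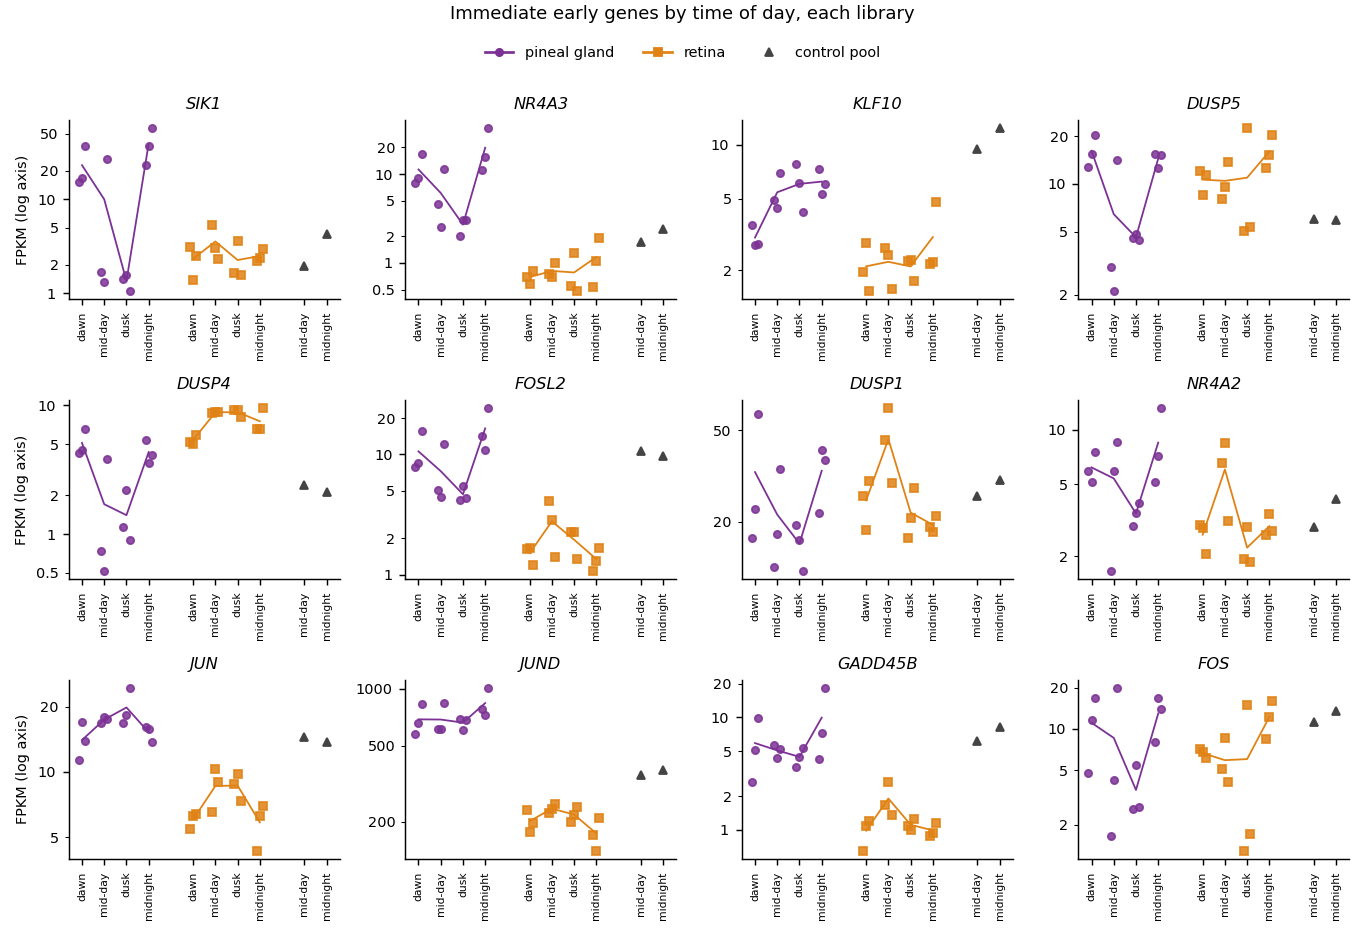
FPKM (log axis) of 12 members in each pineal library (circles), retina library (squares) and control pool (triangles), with lines through the means of 3 libraries per time. SIK1, NR4A3, FOSL2, DUSP4 and DUSP5 are lower at dusk than at dawn and midnight in the pineal gland, where 1 of the 3 mid-day libraries sits apart from the others. For DUSP4 and DUSP5 those other mid-day libraries lie below every dusk library.

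Among NR4A receptors, NR4A3 (NOR1) was at 7.92, 9.05 and 16.9 FPKM in pineal dawn libraries, 4.56, 2.56 and 11.3 in mid-day, 2.01, 3.07 and 3.02 in dusk, and 11.1, 15.6 and 33.0 in midnight libraries. Every dusk library was below every dawn and midnight library. Differences were 2.54 ± 0.51 log2 for midnight against dusk (limma adjusted p = 0.0922), 1.70 ± 0.51 for midnight against mid-day (limma adjusted p = 0.300) and -1.82 ± 0.51 for dusk against dawn (limma adjusted p = 0.116). For NR4A1 (NUR77) and NR4A2 (NURR1) midnight was also above dusk. NR4A1 was at 5.45 to 13.8 FPKM in midnight libraries and 2.88 to 5.09 FPKM in dusk libraries. NR4A2 was at 5.14 to 13.2 FPKM in midnight libraries and 2.93 to 3.95 FPKM in dusk libraries. Neither had overlapping groups at these times.

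Within AP-1, FOSL2 (FRA-2) was at 7.79, 8.48 and 15.5 FPKM in pineal dawn libraries, 5.08, 4.45 and 12.2 in mid-day, 4.17, 5.51 and 4.31 in dusk, and 14.1, 11.0 and 24.3 in midnight libraries. Midnight libraries did not overlap with dusk libraries, and the difference was 1.65 ± 0.39 log2 (limma adjusted p = 0.131). FOS was at 4.80, 11.5 and 16.9 FPKM at dawn, 1.64, 4.26 and 19.9 at mid-day, 2.58, 5.48 and 2.68 at dusk, and 8.05, 16.9 and 13.9 at midnight, so that midnight and dusk did not overlap but mid-day covered the whole range. FOSB was lower, at 1.97 to 4.61 FPKM in midnight libraries and 1.07 to 1.16 FPKM in dusk libraries, and FOSL1 stayed at or under 0.360 FPKM in every pineal library. JUNB was at 9.76 to 19.7 FPKM in midnight libraries and 7.30 to 8.24 FPKM in dusk libraries. JUN, the archetypal FOS partner, ran the other way: 13.7 to 16.1 FPKM in midnight libraries and 16.8 to 24.4 FPKM in dusk libraries, again without overlap. JUN was also the member with the smallest spread between libraries of the same time.

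EGR1 showed no such separation, because dusk 2 held the highest pineal value. Its libraries were at 5.0, 16.8 and 12.2 FPKM at dawn, 2.40, 6.22 and 20.9 at mid-day, 3.38, 24.4 and 5.02 at dusk, and 5.97, 13.3 and 22.0 at midnight. EGR2 was at 0.83 to 1.89 FPKM in midnight libraries and 0.28 to 0.50 FPKM in dusk libraries. EGR3 reached 0.897 FPKM and EGR4 reached 2.85 FPKM at midnight, and both were too low to test although their midnight and dusk libraries did not overlap. ATF3, a stress-induced AP-1 relative, was likewise at 0.616 to 0.862 FPKM in midnight libraries and 0.277 to 0.474 FPKM in dusk libraries.

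MYC, a growth regulator, was at 15.6 to 25.4 FPKM in midnight libraries and 6.85 to 13.1 FPKM in dusk libraries, and in dawn libraries it ranged between 12.4 and 38.1 FPKM. The KLF factors did not follow this pattern. KLF10, induced by TGF-beta and under clock control in mouse liver, was at 3.57, 2.75 and 2.81 FPKM in dawn libraries, 4.91, 4.43 and 6.96 in mid-day, 7.78, 6.15 and 4.21 in dusk, and 7.32, 5.32 and 6.04 in midnight libraries. All 3 dawn libraries were below the other 9. Its log2 differences were 0.73 ± 0.23 for mid-day against dawn (limma adjusted p = 0.232), 0.85 ± 0.23 for dusk against dawn (limma adjusted p = 0.106) and -0.92 ± 0.23 for dawn against midnight (limma adjusted p = 0.386). KLF4, a factor of barrier and vessel cells, had a difference of -0.79 ± 0.30 log2 for dawn against midnight (limma adjusted p = 0.491). Over all pineal libraries KLF2, a factor of endothelial quiescence, was at 2.45 to 9.26 FPKM, KLF4 at 1.78 to 6.52 FPKM and KLF6 at 4.67 to 8.52 FPKM, and KLF2, like KLF10, had all 3 dawn libraries below all mid-day and midnight libraries. NPAS4, an activity-dependent neuronal factor, stayed at or under 0.433 FPKM in every pineal library.

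The DUSP genes encode phosphatases that switch off MAP kinases. DUSP5, specific for ERK, was at 12.8, 15.5 and 20.2 FPKM in pineal dawn libraries, 2.97, 2.11 and 14.2 in mid-day, 4.57, 4.84 and 4.39 in dusk, and 15.5, 12.5 and 15.2 in midnight libraries. DUSP4 was at 4.28, 4.53 and 6.54 FPKM at dawn, 0.746, 0.520 and 3.86 at mid-day, 1.13, 2.19 and 0.897 at dusk, and 5.36, 3.55 and 4.13 at midnight. Both were high in every dawn and midnight library and low in every dusk library and in mid-day libraries 1 and 2. For mid-day against dawn the difference was -1.64 ± 0.48 log2 for DUSP4 (limma adjusted p = 0.216) and -1.68 ± 0.50 for DUSP5 (limma adjusted p = 0.220). DUSP5 differed by 1.54 ± 0.50 log2 for midnight against mid-day (limma adjusted p = 0.327). DUSP1 was at 21.7 to 41.2 FPKM in midnight libraries and 12.2 to 19.2 FPKM in dusk libraries, and DUSP6 at 8.30 to 10.7 FPKM in midnight libraries and 5.26 to 7.63 FPKM in dusk libraries. DUSP2 was listed at 0 in 8 of 12 pineal libraries. ZFP36, which destabilises AU-rich messengers, and the growth inhibitors BTG2 and GADD45B overlapped between midnight and dusk. Over all 12 pineal libraries ZFP36 was at 3.73 to 9.16 FPKM, BTG2 at 14.1 to 37.5 FPKM and GADD45B at 2.69 to 18.3 FPKM.

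CTGF and CYR61 encode matricellular proteins that are targets of YAP and TEAD factors. CTGF had the largest spread between pineal libraries of the same time among the tested members, at 237, 28.5 and 303 FPKM in dawn libraries, 20.1, 17.6 and 157 in mid-day, 17.5, 17.4 and 12.7 in dusk, and 134, 148 and 428 in midnight libraries. Midnight libraries were all above dusk libraries, while dawn 2 was nearer to the dusk level than to the other dawn libraries. The difference between midnight and dusk was 3.66 ± 0.97 log2 (limma adjusted p = 0.159). CYR61 was at 0.720 to 7.84 FPKM over all pineal libraries, highest in mid-day 3, and differed by -0.97 ± 0.56 log2 for dusk against mid-day (limma adjusted p = 0.999), the smallest p of any member in that pair. In the same pair NR4A3 differed by -0.85 ± 0.51 and SIK1 by -1.39 ± 0.85 log2, both at a limma adjusted p of 0.999. IER3, an inhibitor of stress-induced cell death, differed by -0.94 ± 0.31 log2 for dawn against midnight (limma adjusted p = 0.468). IER2, a small nuclear response protein, stayed between 2.46 and 5.20 FPKM and ARC at or under 0.996 FPKM in every pineal library.

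Counted over all members, 16 of 28 had every midnight library above every dusk library, against 8.09% of all genes tested, and 1 of 28, JUN, had every midnight library below, against 14% of all genes. The 16 comprised 3 of 3 tested FOS genes, 2 of 3 JUN genes, 1 of 2 tested EGR genes, 3 of 3 NR4A genes, 5 of 8 tested feedback regulators, MYC and CTGF. The median member differed by 0.87 log2 between midnight and dusk, with 26 of 28 above 0, and the median of all genes was -0.04. For dusk against dawn, 9 of 28 members were below without overlap, against 9.05% of all genes, and KLF10 was above, against 15.5% of all genes. For dawn against midnight 5 members, EGR2, KLF2, KLF10, ZFP36 and IER3, were below without overlap, against 9.75% of all genes, and none was above, against 7.01%. For midnight against mid-day MYC and DUSP6 were above and JUN below, against 5.34% and 8.02% of all genes. For mid-day against dawn KLF2 and KLF10 were above and DUSP4 below, against 10.1% and 5.97%. For dusk against mid-day none was above and CTGF was below, against 5.33% and 2.96%.

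None of the 28 members passed limma's test in a pair of times. The share of all genes that passed was 0.0419% for midnight against mid-day, 0.0314% for mid-day against dawn, 0.0209% for dusk against mid-day, 0.0576% for midnight against dusk, 0% for dawn against midnight and 0.586% for dusk against dawn. At an unadjusted p under 0.05, 14 of 28 members stood out for midnight against dusk, against 12.8% of all genes, and 9 of 28 for dusk against dawn, against 17.0%. In the other pairs the counts were 8 for midnight against mid-day (10.6% of all genes), 7 for mid-day against dawn (13.6%), 5 for dawn against midnight (9.52%) and 0 for dusk against mid-day (3.86%). A voom fit on the recovered reads also gave 0 members in each of these tests.

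The authors' deposited tables, made from the same series of libraries, listed more members as changed. In the pineal tables the mean signal was reproduced from the libraries of the compared pair alone, within 0.01 log2 for 99.99% to 100% of genes compared. Mid-day 3 therefore did not enter their midnight against dusk table, while limma's spread came from all 12 pineal libraries. The calls of the authors and of limma are thus not on like terms. In the authors' deposited table for midnight against dusk, 14 of 31 members with an adjusted p passed 0.05, all higher at midnight, against 5.04% of all genes there. They were FOS, FOSB, FOSL2, JUNB, EGR2, EGR4, NR4A1, NR4A2, NR4A3, MYC, DUSP1, DUSP4, DUSP5 and SIK1, and in that authors' deposited table SIK1 had a log2 fold change of 3.78 with an adjusted p of 2.6e-46. In the authors' deposited table for dusk against dawn, 11 of 31 passed, 10 lower at dusk and KLF10 higher, against 6.15% of all genes. In the authors' deposited table for dawn against midnight, KLF10 and IER3 passed, both lower at dawn, against 1.41%. No member passed in the authors' deposited tables for the pairs that include pineal mid-day, where 1.53% of all genes passed for mid-day against dawn, 0.126% for dusk against mid-day and 1.01% for mid-day against midnight.

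**Figure D2:**
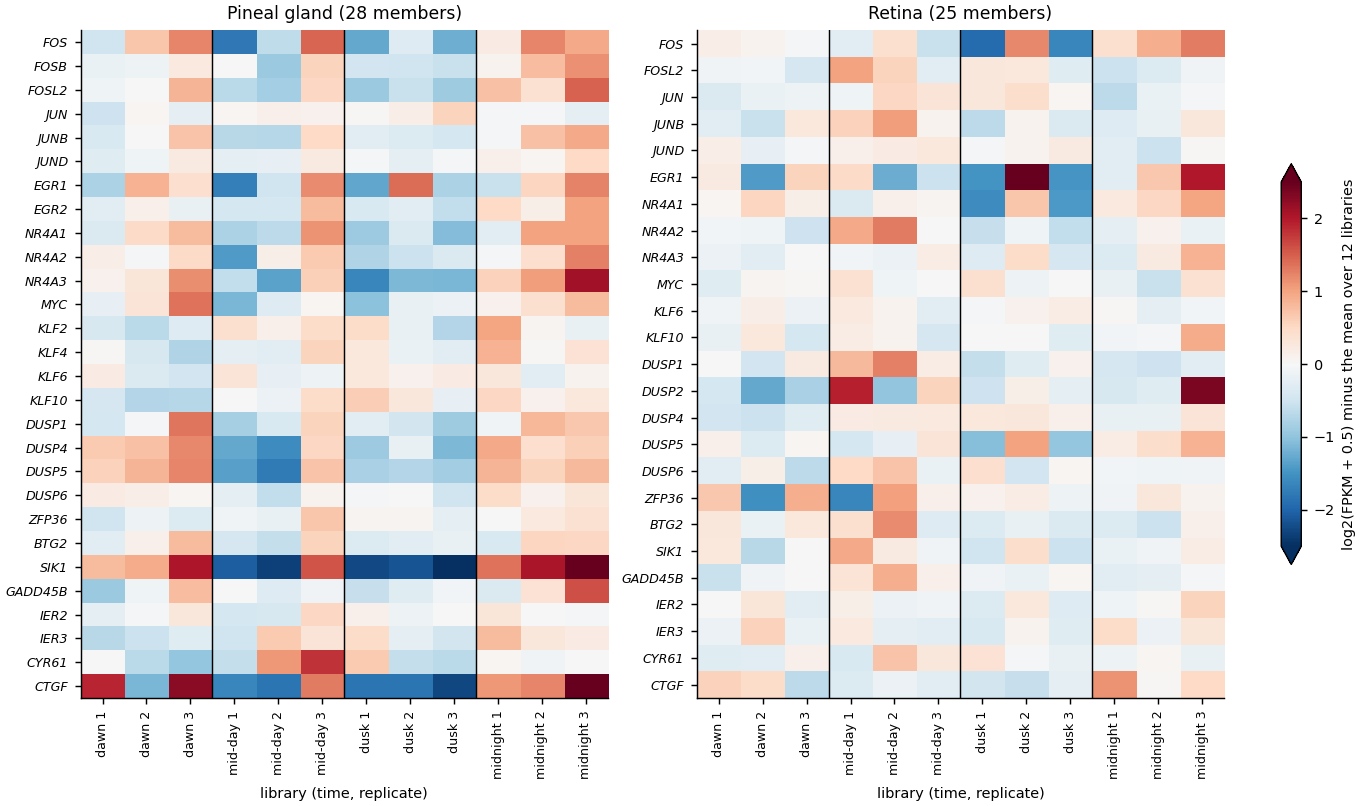
Deviation of each tested member from its mean over the 12 libraries of the tissue, in log2(FPKM + 0.5), with libraries grouped by time and colours saturating at the ends of the bar. In the pineal gland the dusk columns and mid-day 1 and 2 are mostly blue, and the midnight columns and mid-day 3 mostly red.

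Pineal mid-day 3 stood apart from its 2 fellow libraries. In it, 27 of 28 members were above their mid-day mean, against 50.0% of all genes, and 26 of 28 were above their mean over all 12 libraries, against 52.0%. Mid-day 1 and 2 had 4 and 5 members above that mean. FOS was at 19.9 FPKM in mid-day 3 and 1.64 and 4.26 in the others, and CTGF at 157 and at 20.1 and 17.6. Without mid-day 3, limma called 5 members for midnight against dusk: SIK1 (adjusted p = 0.0022), DUSP5 (0.0074), NR4A3 (0.021), FOSL2 (0.036) and DUSP4 (0.044), all higher at midnight, in a comparison where 290 of 18904 genes passed. That library enters this pair through the shared estimate of spread alone, and the SIK1 difference stayed at 4.34 log2 with an SE of 0.37. Mid-day 3 was singled out by the values of these same members, so calls made without it are not independent support. In pairs with mid-day, leaving it out also moves the difference itself. For midnight against mid-day, limma without mid-day 3 called SIK1 (4.22 log2, adjusted p = 0.0044), DUSP5 (2.3, adjusted p = 0.0039) and DUSP4 (2.09, adjusted p = 0.018), among 252 of 18904 genes. The same 3 genes passed for mid-day against dawn (182 genes in all) and for dusk against dawn (397 genes in all), lower at the later time in both, and with NR4A3 they passed the F test over 4 times (378 genes in all).

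Markers of other cell types also differed between libraries and times. In mid-day 3 the 9 fibroblast and mural cell markers summed to 230 FPKM, against 162 and 132 in mid-day 1 and 2, the 7 endothelial markers to 54.3 against 44.3 and 43.7, the 5 pinealocyte markers to 1246 against 867 and 809, and the 5 astrocyte markers to 259 against 414 and 532. Between midnight and dusk, the 6 oligodendrocyte markers summed to 39.4 to 71.2 FPKM at midnight and 71.6 to 133 at dusk, and the 5 astrocyte markers to 301 to 490 at midnight and 464 to 629 at dusk. The 8 photoreceptor markers summed to 104 to 261 FPKM at midnight and 225 to 648 at dusk, and the fibroblast and mural markers to 170 to 259 at midnight and 129 to 217 at dusk. The 5 blood markers, of which HBA1 was at 0 in every pineal library, summed to 22.7 to 42.1 FPKM at midnight and 9.19 to 26.1 at dusk. The 10 markers of retinal inner neurons summed to 89.5 to 118 FPKM at dawn, 51.9 to 87.0 at mid-day, 55.6 to 83.5 at dusk and 81.0 to 88.7 at midnight, without overlap between dusk and dawn. For dusk against dawn, the photoreceptor markers summed to 225 to 648 FPKM at dusk and 62.9 to 266 at dawn, the oligodendrocyte markers to 71.6 to 133 at dusk and 43.7 to 363 at dawn, and the fibroblast and mural markers to 129 to 217 at dusk and 110 to 193 at dawn. The 5 choroid plexus markers summed to 325 to 927 FPKM at dawn and 367 to 1690 at mid-day. They summed to 364 to 1315 FPKM at dusk and 798 to 1073 at midnight. The 10 microglia and macrophage markers summed to 153 to 217 FPKM at midnight and 158 to 199 at dusk. The part of all these cell types in the members' differences was not tested.

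**Figure D3:**
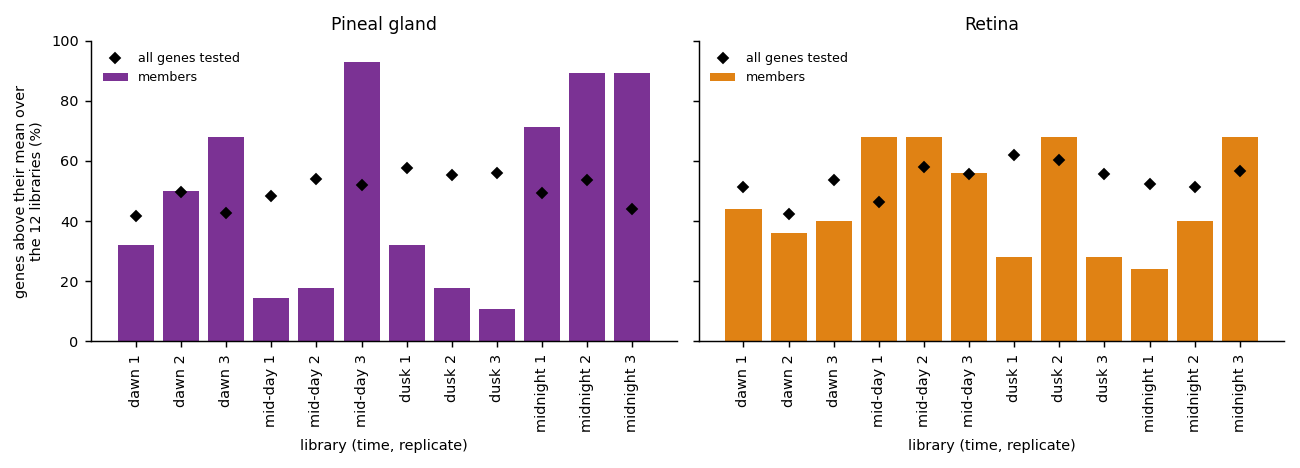
Percentage of tested members (bars) and of all tested genes (diamonds) above their own mean over the 12 libraries of the tissue, by library. In the pineal gland the bars are highest at mid-day 3 (26 of 28 members) and midnight (20, 25 and 25), and lowest at dusk (9, 5 and 3) and mid-day 1 and 2.

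In the retina no member passed a test over time. Over 4 times, 0 of 25 members passed limma's F test, as did 0% of all genes, with 4 of 25 and 10.2% of all genes at an unadjusted p under 0.05. In pairs of times the count was also 0 of 25, where the share of all genes was 0.0274% for midnight against dusk and 0% for the other 5 pairs, and voom gave 0 as well. Counts at an unadjusted p under 0.05 were 7 for midnight against mid-day (11.2% of all genes), 6 for mid-day against dawn (7.80%), 5 for midnight against dusk (10.8%), 4 for dusk against mid-day (3.65%), 2 for dusk against dawn (10.7%) and 1 for dawn against midnight (4.49%). The members with the smallest F test p were DUSP4, DUSP1, NR4A2, JUN, JUND and GADD45B, with limma adjusted p of 0.238 to 0.510.

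DUSP4 was tightly measured in the retina, at 5.24, 5.03 and 5.94 FPKM in dawn libraries, 8.76, 8.87 and 8.91 in mid-day, 9.16, 9.28 and 8.20 in dusk, and 6.52, 6.56 and 9.54 in midnight libraries. All dawn libraries were below all mid-day and dusk libraries. The difference was 0.67 ± 0.13 log2 for mid-day against dawn (limma adjusted p = 0.380), 0.67 ± 0.13 for dusk against dawn (limma adjusted p = 0.177) and -0.43 ± 0.13 for dawn against midnight (limma adjusted p = 0.880). In the authors' deposited tables DUSP4 was higher at mid-day than at dawn (log2 fold change 0.62, adjusted p = 1.8e-07, where 0.851% of all genes passed) and higher at dusk than at dawn (0.62, adjusted p = 5.6e-07, where 4.05% passed). A sex-linked indicator, XIST above EIF1AY, marked 0 of 3 retina dawn and 3 of 3 retina dusk libraries. The indicator and time therefore cannot be told apart between dusk and dawn. It marked 1 of 3 pineal dawn and 2 of 3 pineal dusk libraries, so it cannot simply be read as the sex of the animals.

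DUSP1, NR4A2 and GADD45B had their highest retinal mean at mid-day, and none passed a test over time. In mid-day 2, which held the highest value of all 3, the 5 blood markers summed to 86.4 FPKM, against 3.62 to 22.0 FPKM in the other 11 retina libraries. HBB, with a retinal maximum of 84.9 FPKM, made up nearly all of that sum, and HBA1 and HBA2 were at 0 in every retina library. The part of blood was not tested. DUSP1 was at 25.8, 18.4 and 30.1 FPKM in dawn libraries, 45.4, 62.6 and 29.3 in mid-day, 17.0, 20.7 and 28.0 in dusk, and 19.0, 17.9 and 21.1 in midnight libraries. Every mid-day library was above every dusk and midnight library, with differences of -1.16 ± 0.28 log2 for midnight against mid-day (limma adjusted p = 0.188), -1.01 ± 0.28 for dusk against mid-day (limma adjusted p = 0.905) and 0.83 ± 0.28 for mid-day against dawn (limma adjusted p = 0.503). In the authors' deposited table DUSP1 was lower at midnight than at mid-day (log2 fold change -0.87, adjusted p = 0.0011), where 2.44% of all genes passed. In the authors' deposited tables no member passed for dusk against mid-day in the retina (0 of 24, against 0.0809% of all genes) or for dawn against midnight (0 of 21, against 0.366%).

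NR4A2 was at 2.95, 2.87 and 2.05 FPKM in retina dawn libraries, 6.54, 8.42 and 3.15 in mid-day, 1.94, 2.88 and 1.86 in dusk, and 2.62, 3.41 and 2.75 in midnight libraries. Mid-day libraries were above all dawn and dusk libraries, by 0.98 ± 0.31 log2 against dawn (limma adjusted p = 0.489), and the dusk libraries differed from mid-day by -1.19 ± 0.31 (limma adjusted p = 0.905). JUNB had -0.88 ± 0.30 log2 for dusk against mid-day (limma adjusted p = 0.905). GADD45B, a stress and demethylation factor, was at 0.654, 1.09 and 1.21 FPKM at dawn, 1.66, 2.69 and 1.35 at mid-day, 1.09, 1.0 and 1.24 at dusk, and 0.883, 0.934 and 1.15 at midnight, and here too each mid-day library was above all the others.

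JUN in retina libraries was at 5.44, 6.24 and 6.43 FPKM at dawn, 6.53, 10.3 and 9.0 at mid-day, 8.77, 9.81 and 7.37 at dusk, and 4.33, 6.28 and 6.95 at midnight. Dawn libraries were below all mid-day and dusk libraries, and dusk differed from dawn by 0.48 ± 0.20 log2 (limma adjusted p = 0.428). Midnight differed from dusk by -0.54 ± 0.20 (limma adjusted p = 0.354). JUND was at 229, 176 and 198 FPKM at dawn, 222, 234 and 247 at mid-day, 199, 216 and 239 at dusk, and 170, 141 and 209 at midnight, and differed by -0.45 ± 0.14 log2 for midnight against mid-day (limma adjusted p = 0.278) and by 0.22 ± 0.14 for dawn against midnight (limma adjusted p = 0.880).

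CTGF was low in the retina but had its highest value at midnight, at 2.36 to 5.53 FPKM in midnight libraries and 1.36 to 1.87 FPKM in dusk libraries. The difference was 0.98 ± 0.35 log2 (limma adjusted p = 0.340), and in the authors' deposited table CTGF was higher at midnight (log2 fold change 0.76, adjusted p = 0.014), where 2.54% of all genes passed. Pigment epithelium markers summed to 61.7 to 125 FPKM at midnight and 7.12 to 59.4 at dusk. Midnight 1 held the highest sum and the highest CTGF value. Endothelial markers summed to 86.8 to 98.7 FPKM at midnight and 99.2 to 120 at dusk. That sum was mostly KDR, which was at 60.7 to 91.4 FPKM over all retina libraries. The part of these cell types was not tested. NR4A1 differed by 1.36 ± 0.51 log2 for midnight against dusk (limma adjusted p = 0.369) and by -1.03 ± 0.51 for dusk against dawn (limma adjusted p = 0.522). These values became 2.09 and -1.76 without retina dusk 2. That library held the highest NR4A1 value at dusk, so leaving it out was bound to enlarge both. Without overlap, 2 members were above and 3 below for midnight against mid-day (all genes 8.12% and 9.79%), and for mid-day against dawn 4 were above and none below (7.28% and 4.66%). For dusk against mid-day none was above and 4 were below (5.04% and 4.32%), for midnight against dusk 1 was above and 1 below (8.67% and 13%). For dawn against midnight 4, FOS, DUSP2, DUSP4 and DUSP5, were below and none above (6.2% and 5.32%), and for dusk against dawn 2 were above and 1 below (12.4% and 6.75%). DUSP2, the phosphatase that was near 0 in the pineal gland, differed by -1.39 ± 0.82 log2 for dawn against midnight (limma adjusted p = 0.880).

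Some members had far higher or lower values in single retina libraries. Dusk 2 held EGR1 at 23.3 FPKM against 0.992 and 1.02 in the other dusk libraries, FOS at 15.1 against 1.29 and 1.70, NR4A1 at 8.84 against 1.44 and 1.64, and DUSP5 at 22.4 against 5.01 and 5.35. Without dusk 2, the log2 difference for midnight against dusk was 2.64 for FOS and 2.09 for NR4A1 (limma adjusted p = 0.091 for both), 2.29 for EGR1 (limma adjusted p = 0.440) and 1.51 for DUSP5 (limma adjusted p = 0.270). For dusk against dawn it was then -1.85 for FOS (limma adjusted p = 0.357), -1.76 for NR4A1 (limma adjusted p = 0.342) and -0.96 for DUSP5 (limma adjusted p = 0.391). In these fits no gene of 21732 passed. Dusk 2 was singled out by the values of these same members, so the larger differences without it are not independent support. The 5 pigment epithelium markers summed to 7.12 FPKM in dusk 2 and 59.4 and 27.2 in dusk 1 and 3, and their part in these values was not tested. ZFP36 was at 0.468 and 0.408 FPKM in dawn 2 and mid-day 1, the libraries with many genes at 0, and at 2.05 to 5.17 FPKM in the other 10. DUSP2 reached 9.53 FPKM in mid-day 1 and 12.7 FPKM in midnight 3, and was at 0.574 to 3.30 FPKM in the other 10 retina libraries. Of the other tested members, over all retina libraries NR4A3 was at 0.485 to 1.92 FPKM, KLF6 at 3.53 to 5.27 FPKM, KLF10 at 1.54 to 4.79 FPKM, DUSP6 at 1.74 to 5.22 FPKM, BTG2 at 5.11 to 17.8 FPKM, IER2 at 2.96 to 6.0 FPKM and IER3 at 2.13 to 4.63 FPKM. FOSB, ATF3 and EGR2 stayed at or under 0.333, 0.365 and 0.383 FPKM. Leaving out dawn 2 and mid-day 1 left 0 members called in every retina test over time.

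The difference between the tissues in the 4-time profile was tested directly. No member passed limma's interaction test (0 of 29, against 0.218% of all genes), with 8 of 29 at an unadjusted p under 0.05 against 9.40% of all genes, and 0 by voom. DUSP4 (limma adjusted p = 0.0856), SIK1 (0.123) and FOSL2 (0.175) came nearest. Without pineal mid-day 3 these 3 passed, at limma adjusted p of 2.3e-04 for DUSP4, 2.5e-04 for SIK1 and 0.028 for FOSL2, in a fit where 278 of all genes passed. That library was singled out by the members' own values, so these calls are not independent support. DUSP4 ran in opposite directions: mid-day and dusk libraries were below dawn libraries in the pineal gland (0.520 to 3.86 FPKM against 4.28 to 6.54 FPKM), and above them in the retina (8.20 to 9.28 FPKM against 5.03 to 5.94 FPKM).

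Libraries of the same time differed more for these genes than for most. The SD between libraries of the same time had a median of 0.53 log2 over the 28 tested members in the pineal gland, against 0.26 over all genes, and 26 of 28 were above the median of genes at a similar level. In the retina the medians were 0.39 over 25 members and 0.24 over all genes, and 17 of 25 were above. The largest pineal values were 1.37 for CTGF, 1.19 for SIK1, 1.19 for EGR1, 1.01 for FOS, 0.76 for CYR61 and 0.74 for NR4A1. The smallest were 0.21 for JUN, 0.23 for JUND, 0.24 for DUSP6 and 0.27 for KLF6. Pineal mid-day 3, in which 27 of 28 members were above their mid-day mean, contributed to this spread. Without it the SE for midnight against dusk fell to 0.37 log2 for SIK1, while it was still 0.79 for CTGF. In the retina the largest were 1.45 for EGR1, 1.10 for DUSP2, 0.96 for ZFP36, 0.92 for FOS, 0.69 for NR4A1 and 0.65 for DUSP5, and the smallest 0.17 for DUSP4, 0.18 for KLF6, 0.19 for JUND and 0.26 for JUN. FOS, EGR1 and NR4A1 were thus among the 6 most variable in both tissues, and JUN, JUND and KLF6 among the 4 steadiest.

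**Figure D4:**
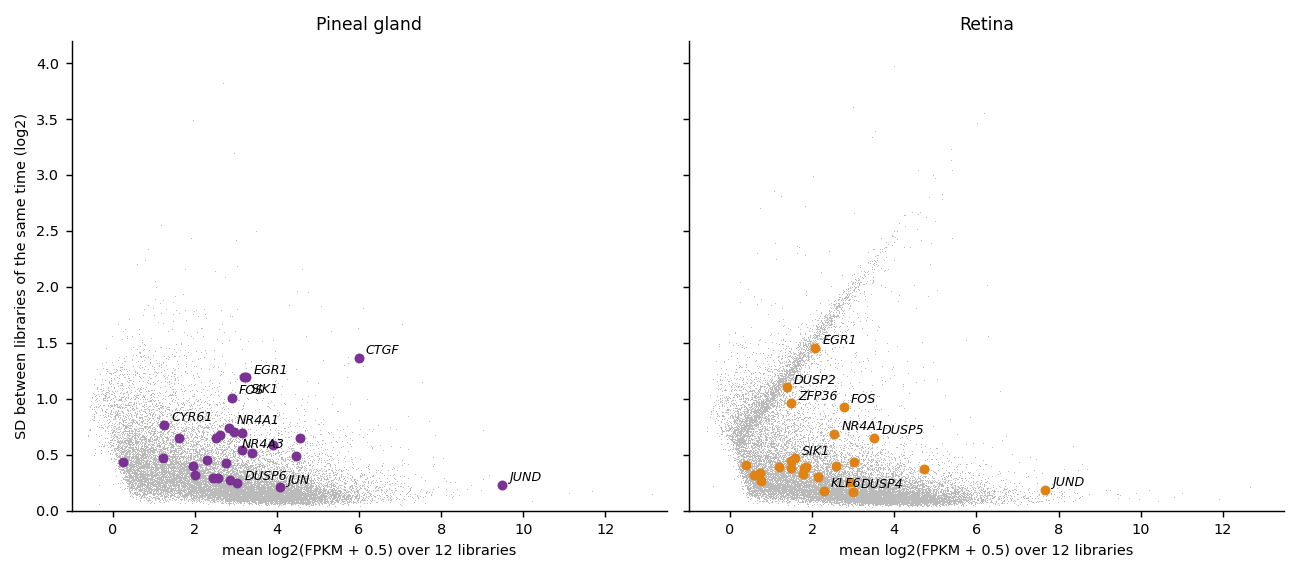
SD between libraries of the same time, on the log2(FPKM + 0.5) scale, against the mean level over the 12 libraries, for all tested genes (grey) and tested members (coloured, with the most and least variable named). Most coloured points lie above the grey mass at their level in the pineal gland, led by CTGF, SIK1, EGR1 and FOS. In the retina a diagonal band of grey points is made of genes near 0 in some libraries and present in the rest.

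Taking all times together, most members were higher in the pineal gland than in the retina. Limma called 24 of 29 at a Benjamini-Hochberg adjusted p under 0.05, against 83% of all genes, of which 22 were higher in the pineal gland, against 34.9%, and 2 lower, against 48.1%. Of these, FOSB, EGR2, KLF2, KLF4 and DUSP2 could be tested only through the tissue in which they were high. Among the 24 members that passed the filter in each tissue by itself, 18 were higher and 1 lower in the pineal gland, with a median difference of 1.04 log2, against -0.18 for all genes. Without retina dawn 2 and mid-day 1, EGR1 (limma adjusted p = 0.056) and CYR61 (limma adjusted p = 0.10) no longer passed.

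CTGF differed most, with a median of 81.1 FPKM (12.7 to 428) in pineal libraries and 1.95 FPKM (1.28 to 5.53) in retina libraries, a difference of 4.52 ± 0.38 log2 (limma adjusted p = 2.6e-09). MYC had a median of 14.1 FPKM (6.27 to 38.1) in pineal and 1.01 FPKM (0.522 to 1.48) in retina libraries, a difference of 3.31 ± 0.18 log2 (limma adjusted p = 3.9e-12). NR4A3 differed by 2.57 ± 0.22 (limma adjusted p = 3.1e-09) and FOSL2 by 1.96 ± 0.18 (limma adjusted p = 1.0e-08). For all 4 genes the lowest pineal library was above the highest retina library. KLF2 differed by 1.94 ± 0.16, GADD45B by 1.85 ± 0.20, KLF4 by 1.83 ± 0.15 and FOSB by 1.83 ± 0.16 log2, all at limma adjusted p under 0.05. KLF2, KLF4 and FOSB passed the filter through the pineal gland alone, so the direction of their tests was fixed in advance. SIK1 was higher in the pineal gland on average, by 1.61 ± 0.34 log2 (limma adjusted p = 2.6e-04), although its pineal dusk libraries, at 1.06 to 1.55 FPKM, were at the low end of the retinal range of 1.36 to 5.33 FPKM or below it. The SIK1 difference was 1.30 without pineal mid-day 3.

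DUSP2 and DUSP4 were lower in the pineal gland, with differences of -2.29 ± 0.30 log2 (limma adjusted p = 1.3e-06) and -1.39 ± 0.18 (limma adjusted p = 1.1e-06). DUSP2 passed the filter through the retina alone, so the direction of its test was fixed in advance. DUSP2 had a median of 0 FPKM (0 to 0.162) in pineal libraries and 1.53 FPKM (0.574 to 12.7) in retina libraries, and DUSP4 of 3.71 FPKM (0.520 to 6.54) and 8.48 FPKM (5.03 to 9.54). FOS, NR4A1, IER2, DUSP1 and DUSP5 did not pass, with differences of 0.13 ± 0.37, 0.30 ± 0.27, -0.14 ± 0.12, -0.15 ± 0.20 and -0.36 ± 0.26 log2. Without pineal mid-day 3, DUSP5 passed at -0.55 log2 (limma adjusted p = 0.015) and EGR1 no longer passed (0.98 log2, limma adjusted p = 0.077). The 2 tissues differ in their cell types altogether, so that a member's level cannot be assigned to a cell type.

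Ordered by median FPKM without JUND, the pineal list ran CTGF (81.1), DUSP1 (20.5), BTG2 (18.2), JUN (16.8), SIK1 (16.1) and MYC (14.1), and the retina list DUSP1 (23.4), DUSP5 (11.7), DUSP4 (8.48), FOS (6.91), JUN (6.74) and BTG2 (6.64). The ranges of neighbours overlapped throughout both sequences. At the low end, EGR3, EGR4, ARC and NPAS4 had medians of 0.413, 0.331, 0.334 and 0.170 FPKM in pineal libraries and 0.0265, 0.0318, 0.0480 and 0.108 FPKM in retina libraries. ARC, a neuronal plasticity gene, was at 1.98 and 1.76 FPKM in the pools, above every pineal and retina library.

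**Figure D5:**
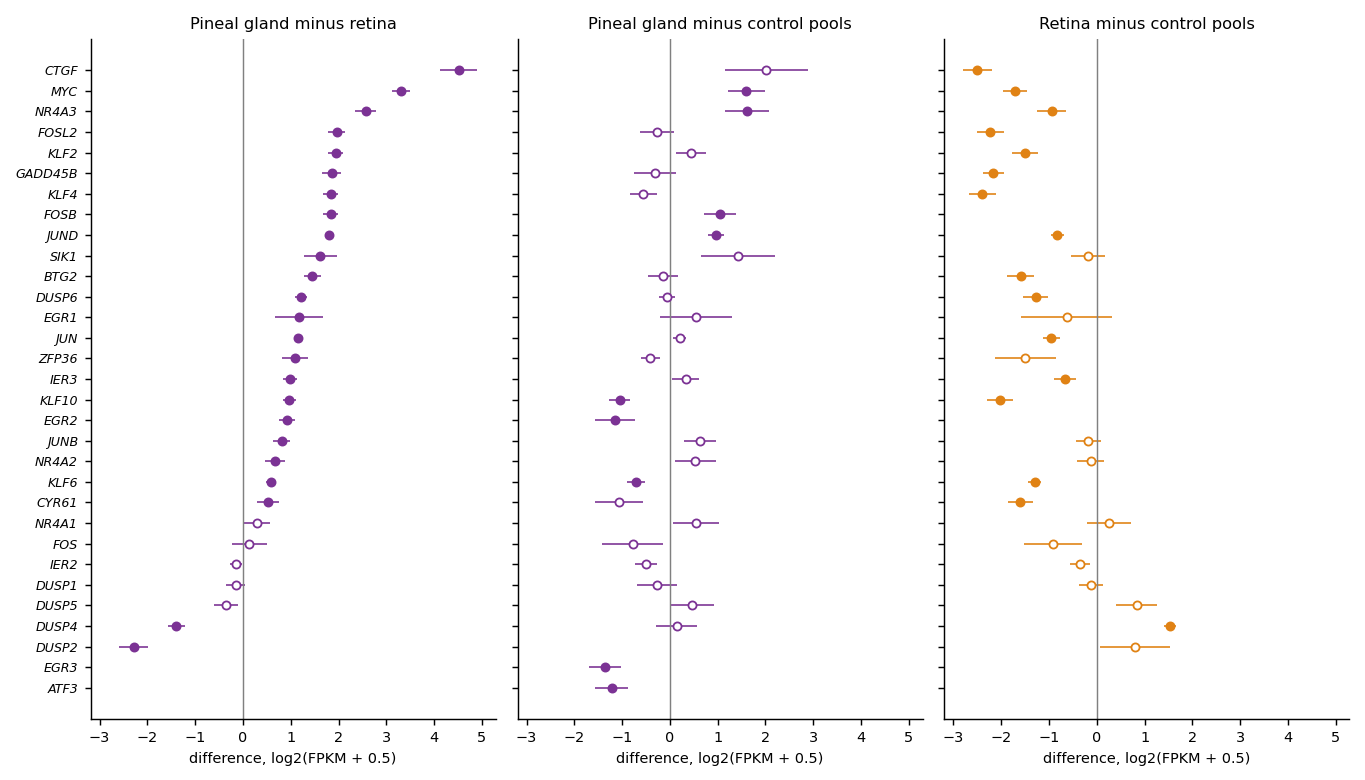
Difference of each tested member in log2(FPKM + 0.5), with bars of 1 SE, between pineal gland and retina (left), pineal gland and control pools (middle), and retina and control pools (right); filled points passed limma's test and open points did not. Most members lie right of 0 in the left panel and left of 0 in the right panel, and the middle panel is divided.

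Against the control pools, the pineal gland was divided and the retina mostly lower. In pineal gland against pools limma called 9 of 30 members, against 51.1% of all genes, with 4 higher (26.2% of all genes) and 5 lower (24.9%). ATF3 and EGR3 could be tested only because the pools also held them. NR4A3 was at 2.01 to 33.0 FPKM in pineal libraries and 1.71 and 2.41 FPKM in the pools, a difference of 1.62 ± 0.46 log2 (limma adjusted p = 0.011). MYC was at 3.84 and 5.09 FPKM in the pools, below every pineal library, and differed by 1.60 ± 0.38 (limma adjusted p = 0.0043). FOSB was higher by 1.05 ± 0.33 (limma adjusted p = 0.019) and JUND by 0.97 ± 0.17 (limma adjusted p = 4.9e-04).

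KLF10 was lower in the pineal gland, at 2.75 to 7.78 FPKM against 9.44 and 12.3 FPKM in the pools, a difference of -1.05 ± 0.21 log2 (limma adjusted p = 0.0014). Also lower were KLF6, with a log2 difference of -0.72 ± 0.19 (limma adjusted p = 0.0073), EGR3 with -1.35 ± 0.34 (limma adjusted p = 0.0054), ATF3 with -1.22 ± 0.34 (limma adjusted p = 0.010) and EGR2 with -1.15 ± 0.43 (limma adjusted p = 0.041). EGR3 and ATF3 passed the filter only with the pools, so the direction of their tests was fixed in advance. EGR2 was at 4.46 FPKM in the mid-day pool and 0.917 FPKM in the midnight pool, and without the mid-day pool its difference was -0.24 log2 (limma adjusted p = 0.709). Without that pool JUND, KLF10 and ATF3 were the 3 members called, with 7079 of all genes. Without the midnight pool, ATF3 (-1.07 log2) and FOSB (1.15 log2) were no longer called. EGR3 was under the filter without either pool and could not be tested.

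In retina against pools limma called 16 of 27 members, against 59.9% of all genes. DUSP4 alone was higher, at 5.03 to 9.54 FPKM in retina libraries against 2.40 and 2.11 FPKM in the pools, by 1.54 ± 0.12 log2 (limma adjusted p = 1.5e-06), where 36.8% of all genes were higher. The other 15 were lower, against 23.1% of all genes. They were led by CTGF (-2.5 ± 0.30), KLF4 (-2.39 ± 0.28), FOSL2 (-2.23 ± 0.28) and GADD45B (-2.17 ± 0.22), followed by KLF10 (-2.02 ± 0.27), MYC (-1.71 ± 0.25), CYR61 (-1.60 ± 0.26) and BTG2 (-1.59 ± 0.28), with limma adjusted p of at most 6.8e-04. FOSL2, for example, was at 1.08 to 4.08 FPKM in retina libraries and 10.7 and 9.67 FPKM in the pools. KLF2 and KLF4 could be tested only with the pools, and among the other 25 members 1 was higher and 13 lower. ZFP36 did not pass (limma adjusted p = 0.0611) but passed at -1.12 log2 without retina dawn 2 and mid-day 1 (limma adjusted p = 8.7e-04). With 2 pools of unequal makeup, and whole organs of many cell types in each, these differences place the members against a mixed background and not against a tissue.

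Genes around the members in the pathway were examined as 3 lists. Among upstream kinases and factors (39 genes, such as ERK and p38 kinases, CREB1, SRF and YAP1), other rapid response genes (32 genes, 29 in the table) and AP-1 partners (13 genes), no gene passed limma's test in a pair of times or an F test over 4 times in either tissue. At an unadjusted p under 0.05 for pineal midnight against dusk there were 4 of 38 upstream genes, 13 of 26 other rapid response genes and 1 of 11 AP-1 partners. The share of all genes was 12.8%. CREM, which encodes cyclic AMP response modulators including the inducible repressor ICER, differed by 1.38 log2 (limma adjusted p = 0.162), BDNF, a neurotrophin, by 2.38 (limma adjusted p = 0.158) and PER1, a clock gene with cyclic AMP response sites, by 0.82 (limma adjusted p = 0.164). In the interaction test 1 of 27 other rapid response genes passed, SPRY4, an inhibitor of receptor kinase signalling (limma adjusted p = 0.047). SPRY4 had 1.11 ± 0.28 log2 for midnight against dusk in the pineal gland and -0.51 ± 0.20 in the retina.

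Between the tissues, limma called 39 of 39 upstream genes (25 higher and 14 lower in the pineal gland), 22 of 27 other rapid response genes (16 higher and 6 lower) and 11 of 11 AP-1 partners (6 higher and 5 lower), where 83% of all genes were called. WWTR1, the YAP paralog TAZ, was higher in the pineal gland by 2.55 log2 (limma adjusted p = 7.6e-15), as was HBEGF, a growth factor, by 3.11 (limma adjusted p = 4.2e-12). CAMK4, a calcium-dependent kinase that activates CREB, was lower in the pineal gland, with a difference of -2.68 log2 (limma adjusted p = 2.4e-13), and so was NRL, a rod factor of the Maf family, with -6.91 (limma adjusted p = 8.7e-21). Against the pools, 27 of 38 upstream genes were called in the pineal gland (12 higher, 15 lower), where 51.1% of all genes were called, and 26 of 39 in the retina (5 higher, 21 lower), where 59.9% were.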

How the data were processed

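The authors deposited FPKM values per gene for 26 libraries, and tables of their own comparisons with p-values, a mean signal per gene on the scale of counts, a test score and log2 fold changes, per the file headers. The software named in the submitters' processing notes was STAR 2.3.0e, Subread, featureCounts, FastQC and DESeq2 and the build was hg19, a human genome. The annotation, strand and multi-read settings are not stated by the labels or headers used, so reads of close paralogs (such as DUSP or KLF genes) or overlapping genes could be divided.

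Genes with FPKM of at least 1 in at least 3 fitted libraries were tested with limma 3.58.1 (R 4.3.3) on log2(FPKM + 0.5), with a mean-variance trend, two-sided, adjusted over all genes tested. A scale with an added 0.5 understates changes of low genes. The labels do not tie replicate libraries to animals beyond 3 animals per time, so a p-value here reflects the variation among libraries, which may be partly technical. Each tissue's 12 libraries shared 1 estimate of spread, so that comparisons between times share libraries too. There were 18 comparisons. Whole reads were recovered from the FPKM steps for 42804 of 42804 genes above 0 (100%, within 0.0001) and used for depth and a voom alternative. EGR4, ARC, FOSL1 and NPAS4 had medians of 8 or fewer reads over all libraries. Scripts used Python 3.11.15, numpy 2.4.6, pandas 2.3.3 and matplotlib 3.10.9, and the fit was tested on simulated data.

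The members, lists and tests were chosen with earlier results of these data known. Values in every library were given for the 6 smallest F test p in each tissue, fold changes for the 3 smallest p in each pair of times and up to 8 largest called differences between tissues or pools. FOS, EGR1, CTGF and members given by ranges were added after their values were seen. Deposited comparisons with the pools were not used, and no sequences or positions are given. The symbols of 33 of 35 members matched the RefSeq gene table of macaque assembly T2T-MMU8v2.0, used for names alone.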

Additional observations from a re-analysis of the deposited data

Results flagged for a closer look

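DUSP4 moved in opposite directions in the pineal gland and the retina, with every library of the later time below every dawn library in the pineal gland and above every dawn library in the retina. For mid-day against dawn the log2 difference was -1.64 in the pineal gland and 0.67 in the retina. For dusk against dawn it was -1.60 in the pineal gland and 0.67 in the retina. These pairwise contrasts between the tissues were not tested one by one. Limma's interaction test over 4 times gave an adjusted p of 0.0856 for DUSP4, and 0.011 with array weights. Without pineal mid-day 3, a library singled out by the members' own values, it was 2.3e-04. In the retina a sex-linked indicator (XIST above EIF1AY) marked 0 of 3 dawn and 3 of 3 dusk libraries. Its part and that of time cannot be told apart in that pair.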

How the results depend on the processing

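Of all alternatives, 14 moved a count of called members by more than 1.5 times, and none reversed a direction. With array weights, limma called 1 member in the pineal F test (129 genes in all, against 20), 3 for pineal midnight against dusk (309 genes, against 11), 1 for pineal dusk against dawn (517 genes, against 112), 1 for retina dusk against dawn (396 genes, against 0) and 3 in the interaction test (459 genes, against 54). Leaving out 1 library at a time gave 0 to 4 members in the pineal F test, 0 to 3 for midnight against mid-day, 0 to 3 for mid-day against dawn, 0 to 5 for midnight against dusk, 0 to 3 for dusk against dawn, 0 to 3 in the interaction test and 3 to 12 for pineal gland against pools. Each maximum came without pineal mid-day 3, and the minimum of 3 without the mid-day pool. Over all genes those fits gave 4 to 378 calls in the pineal F test and 0 to 290 for midnight against dusk.

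With the replicate block, 1 member, NR4A3, was called for pineal midnight against dusk and 1 for dusk against dawn. The labels do not say whether the numbers pair the samples, and the values did not settle it. Deviations of same-numbered libraries correlated at -0.15 to 0.16 across pineal times and -0.73 to 0.67 across retina times. Yet 10 of 12 pineal libraries correlated best with their own number (3 of 12 in the retina). The pseudocount, the filter, a shift to equal medians and a sex-linked covariate left 0 members called in every time comparison. That covariate, XIST above EIF1AY, marked 0 of 3 retina dawn and 3 of 3 retina dusk libraries. Time and the covariate therefore went together in that pair. In pineal libraries it marked 1 of 3 at dawn, 3 of 3 at mid-day, 2 of 3 at dusk and 1 of 3 at midnight. Between tissues, EGR1 lost its call without the filter, with the sex-linked covariate and without single libraries, and CYR61 without the filter, by voom, with array weights, with the replicate block and without single libraries. Low read counts limit EGR3, EGR4, ARC, NPAS4 and FOSL1.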

Other observations

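The control pools were single libraries with no test between them. EGR2 was at 0.917 FPKM in the midnight pool and 4.46 FPKM in the mid-day pool. SIK1 was at 4.25 FPKM in the midnight pool and 1.96 FPKM in the mid-day pool, and KLF2 at 4.07 and 2.40 FPKM. DUSP5 was at 5.89 FPKM in the midnight pool and 5.97 FPKM in the mid-day pool.

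Individual libraries carried the highest value of many members. In the retina, mid-day 2 was highest for 9 of 25 members, among them JUNB, NR4A2, DUSP1 and BTG2, against 8.73% of all genes, and midnight 3 for 7, among them FOS, NR4A1 and DUSP2, against 10.7%. In the pineal gland, midnight 3 was highest for 10 of 28 members, against 6.75% of all genes.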
